A study of Mus musculus with 14 samples.

Results

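The MHC class II and invariant chain genes studied here encode the molecules that display peptides from swallowed material to helper T cells. They were compared in the nucleus accumbens, part of the ventral striatum and of the brain's reward circuit, between mice given AAV-Cre and mice given AAV-GFP. The list has 8 genes, taken by exact gene symbol from the 13130 genes of the authors' deposited table, and 7 of them were analysed: H2-Aa, H2-Ab1, H2-Eb1, Cd74, H2-DMa, H2-DMb1 and H2-DMb2. The eighth, Ciita, was not analysed here, nor were the class II loci H2-Oa, H2-Ob, H2-Eb2 and H2-Ea. The members were listed by name and not by a measured value, but with earlier results of these data known.

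All 14 mice were of strain C57BL/6 and homozygous for a loxP-flanked Tet1 gene, so the controls carried the same allele. The TET1 protein oxidises methylated cytosine. An adeno-associated virus (AAV) injected into the region of 7 mice delivered Cre, the recombinase that removes DNA between loxP sites, and in the other 7 the virus delivered green fluorescent protein (GFP). Polyadenylated RNA was sequenced 4 weeks after injection, with 1 library per mouse. The promoter of the virus, the cells it entered, and the age and sex of the mice are not given in the labels, and mice without virus were not analysed here.

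The values are the authors' own comparison: 1 log2 fold change (AAV-Cre over AAV-GFP), mean log2 level and p-value per gene. No value per mouse was available, so depth per library is unknown, SDs cannot be given, and whether the groups overlap cannot be seen. Tet1 itself stood at a log2 fold change of -0.13 (adjusted p = 0.921) in the authors' deposited table, a value over the whole transcript that does not measure recombination. Of 11 markers of medium spiny neurons, the principal cells of the region, 10 were analysed. Penk and Ppp1r1b among them had mean levels of 884 and 515 CPM (reads of a gene scaled to library size) per kb of transcript, derived from the authors' deposited table.

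A class II molecule is a pair of chains, alpha and beta. H2-Aa and H2-Ab1 encode the 2 chains of the mouse A molecule, and H2-Eb1 the beta chain of the E molecule, whose alpha gene is defective in the haplotype of C57BL/6 mice. The invariant chain, encoded by Cd74, holds new class II molecules together, blocks their groove and guides them to endosomes, where proteases cut it down to a short peptide called CLIP. The DM molecule, built from H2-DMa and either H2-DMb1 or H2-DMb2, then exchanges CLIP for peptides of foreign or self proteins. Dendritic cells, B cells and macrophages carry these proteins constantly. Microglia of healthy brain carry little, and interferon gamma raises it in many cell types through the transactivator CIITA. CIITA does not bind DNA itself but sits on the factors RFX, CREB and NF-Y at paired X and Y boxes in class II promoters.

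RefSeq promoters (GRCm38.p6, 250 bases before to 50 after the start) of the members were searched for the paired boxes. The letters of both boxes were found in H2-Eb1, H2-DMb1 and H2-DMb2. H2-Aa held no match to the X box letters, so another pattern is marked in its stretch. H2-DMa held neither of these patterns and is not shown. The genes shown are known to share control through paired boxes and differ here in their fold changes. No promoter was matched by symbol for H2-Ab1 and Cd74, so these members were not searched, and their absence below says nothing about their boxes. The first capitals mark AACNGATG from the X box in H2-Eb1, H2-DMb1 and H2-DMb2, but the cyclic AMP response element TGACGTCA in H2-Aa. The second capitals mark ATTGG, the reverse complement of the CCAAT core of the Y box. The windows are chr17:34287857-34287912 (minus strand) for H2-Aa, chr17:34305763-34305822 for H2-Eb1, chr17:34153084-34153144 for H2-DMb1 and chr17:34145113-34145173 for H2-DMb2, the last 3 on the plus strand.
H2-Aa: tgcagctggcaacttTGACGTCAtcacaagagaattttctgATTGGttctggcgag
H2-Eb1: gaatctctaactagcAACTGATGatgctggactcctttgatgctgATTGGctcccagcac
H2-DMb1: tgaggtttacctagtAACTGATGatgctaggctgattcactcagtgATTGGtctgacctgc
H2-DMb2: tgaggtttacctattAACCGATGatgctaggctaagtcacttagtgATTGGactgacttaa

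Each letter pattern was searched for on both strands, with the letters trimmed while these promoters were in view. The pattern AACNGATG, from the X box, was found in H2-Eb1, H2-DMb1 and H2-DMb2 and in 2.32% of all 32851 promoters. TGACGTCA, the cyclic AMP response element that CREB binds, was found in H2-Aa and in 1.79% of promoters. ATTGG, a short pattern, was found in 37.4% of promoters and in at least 1 promoter of each of the 5 members matched by symbol (H2-DMa has 2 promoters). The gap between the capitals was 22 bases in H2-Eb1 and 23 in H2-DMb1 and H2-DMb2. In H2-Aa it was 18, but counted from the cyclic AMP response element, so it cannot be compared with those gaps. An AACNGATG followed by ATTGG on the same strand after 15 to 25 bases occurred in 5 of the 32851 promoters (0.0152%). Beside those 3 members they were H2-Eb2 and BC051142, also on chromosome 17, which were not analysed for expression. These matches describe letters in a window and are not evidence of binding.

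The 2 A chains, the E beta chain and the invariant chain had close fold changes, each more than 5 times the AAV-GFP level, and large errors. H2-Aa, the A alpha chain (ENSMUSG00000036594.10, chromosome 17, 34282744 to 34287823, minus strand, GRCm38), stood at 2.53 ± 0.60 in the authors' deposited table, given as log2 fold change ± standard error here and below. That is 5.79-fold, with 95% limits of 2.38- to 14.1-fold. Its partner H2-Ab1, the A beta chain (ENSMUSG00000073421.5, 34257689 to 34269419, plus strand), stood at 2.44 ± 0.56 there, 5.41-fold (2.35 to 12.5). Thus the 2 chains of 1 molecule differed by 0.10 in log2 fold change, a difference that was not tested.

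H2-Eb1, the E beta chain (ENSMUSG00000060586.10, 34305867 to 34316674, plus strand), stood at 2.40 ± 0.56 in the authors' deposited table, 5.30-fold (2.33 to 12.04). Cd74, on chromosome 18 and so not linked to the other members, stood at 2.53 ± 0.61 in that table, 5.77-fold (2.35 to 14.1). The 4 log2 fold changes thus lay within 0.13 of each other, and the genes lie on 2 chromosomes. Unadjusted p ran from 0.00059 for H2-Eb1 to 0.00082 for Cd74 in the authors' deposited table, and the adjusted p was 0.695 for each of the 4.

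The chains of the peptide exchanger DM stood much lower. H2-DMb1, a DM beta chain (ENSMUSG00000079547.3, 34153072 to 34160230, plus strand), had a log2 fold change of 0.75 ± 0.26 in the authors' deposited table, 1.68-fold (1.14 to 2.48; unadjusted p = 0.0118). H2-DMb2, the other DM beta chain (ENSMUSG00000037548.10, 34143307 to 34151555, plus strand), stood at 0.53 ± 0.24 there, 1.44-fold (1.01 to 2.07; unadjusted p = 0.0470). H2-DMa, the DM alpha chain (ENSMUSG00000037649.9, 34119541 to 34139101, plus strand), had the lowest value of the 7 in the authors' deposited table, 0.34 ± 0.16, or 1.26-fold (1.001 to 1.60; unadjusted p = 0.0488). Each DM chain had an adjusted p of 0.919 in that table.

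**Figure D1:**
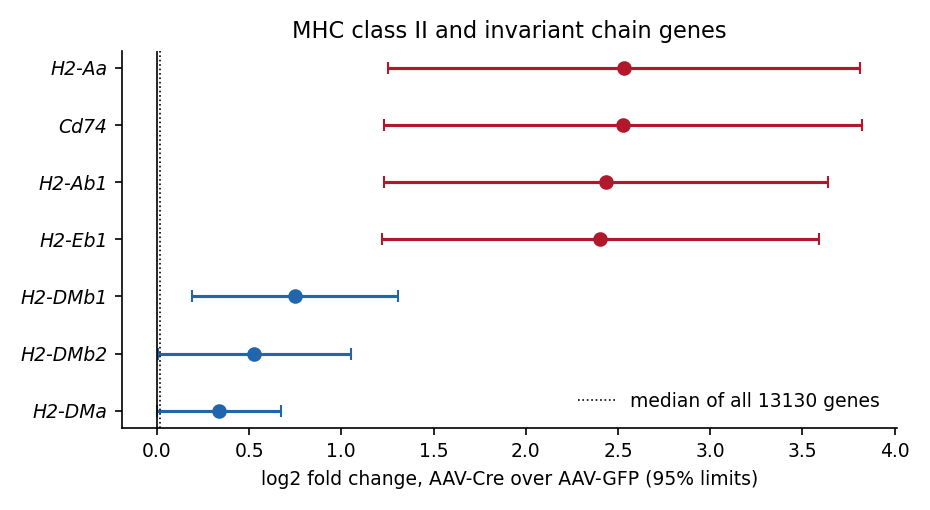
Log2 fold change (AAV-Cre over AAV-GFP) of each member with its 95% limits, in red for the A and E chains and Cd74 and in blue for the DM chains; the dotted line is the median of all genes. The 4 red values lie between 2.40 and 2.53 and the 3 blue ones between 0.34 and 0.75.

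No member passed an adjusted p of 0.05, nor did any other gene: 0% of the 13130 genes were called, and in the authors' deposited table adjusted p started at 0.695. At an unadjusted p under 0.05, all 7 members were higher in AAV-Cre, against 4.62% of all genes in that direction (606 genes) and 0.533% in the other. Under 0.01 the count was 4 members, the A and E chains and Cd74, against 1.01% of all genes. All 7 had a log2 fold change above 0, as did 59.1% of genes. A log2 fold change of at least 1 was reached by 4 members and 0.845% of genes, and one of at least 2 by the same 4 and 0.427%. Mean levels of the 7, derived from the authors' deposited table, ran from 1.69 CPM per kb of transcript for H2-DMb2 to 24.8 for Cd74, and the filter on low genes behind that table is not known. The median log2 fold change over the 7 was 2.40 and their mean 1.65, beside a median of 0.02 over all genes.

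The upper 95% limit of H2-DMa, 0.68, and that of H2-DMb2, 1.05, lay below the lowest lower limit of the other 4 members, 1.22 for H2-Eb1. That of H2-DMb1, 1.31, overlapped with it. The difference between members was not tested, because all genes come from the same mice and the authors' deposited table holds no covariance between genes. By size of log2 fold change, H2-Aa, Cd74, H2-Ab1 and H2-Eb1 ranked 44, 45, 49 and 50 of 13130 genes and 6, 7, 8 and 9 of those annotated as protein coding. H2-DMb1, H2-DMb2 and H2-DMa ranked 152, 234 and 420 of all genes.

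Of the 50 genes with a log2 fold change at least that of H2-Eb1, 41 carried an immunoglobulin segment biotype and 4 were members. The other 5 were Cxcl9 and Cxcl10, chemokines that attract T cells, the complement gene C3, the immunoglobulin light chain constant gene Iglc2 and Igj, the joining chain of secreted antibodies. Their log2 fold changes in the authors' deposited table were 3.89 ± 0.94, 2.69 ± 0.79, 3.09 ± 0.85, 3.03 ± 0.87 and 2.69 ± 0.83, in that order. Mean levels were 1.07, 1.33, 4.98, 0.73 and 34.4 CPM, in the same order, so those of Cxcl9, Cxcl10 and Iglc2 were low.

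The 6 genes with a mean of at least 1 CPM whose log2 fold change was nearest to 2.48, the median of the A and E chains and Cd74, rest on this single comparison. They were the immunoglobulin constant gene Ighg2c (2.47 ± 1.04), the protease inhibitor gene Cst7 (2.30 ± 0.69), the chemokine gene Ccl5 (2.28 ± 0.75), Igj, Cxcl10 and the B cell-attracting chemokine gene Cxcl13 (2.20 ± 0.75) in the authors' deposited table. Their adjusted p ran from 0.751 to 0.919 there. Likeness of fold change in 1 comparison does not show that genes vary together between mice.

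Levels per group were derived from the authors' deposited table by placing the groups evenly on either side of the mean log2 level, a log2 fold change apart, which assumes that the 14 libraries counted equally in both. They are therefore approximate and carry no SD. Being means of log2 values turned back into CPM, they lie below the plain mean CPM, and further below it where mice spread more. Genes of unlike spread are compared here with that limit. Divided by the length of the longest coding transcript, Cd74 had a derived level of 59.6 CPM per kb in AAV-Cre, against 10.3 in AAV-GFP. H2-Aa had 28.2 CPM per kb in AAV-Cre and 4.88 in AAV-GFP. H2-Ab1 had 19.0 in AAV-Cre and 3.50 in AAV-GFP, and H2-Eb1 13.3 in AAV-Cre and 2.51 in AAV-GFP.

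Among the DM chains, H2-DMa had a derived level of 12.2 CPM per kb in AAV-Cre and 9.61 in AAV-GFP. H2-DMb1 had 2.93 in AAV-Cre and 1.74 in AAV-GFP, and H2-DMb2 2.03 in AAV-Cre and 1.41 in AAV-GFP. In AAV-GFP the derived level of H2-DMa was therefore close to that of Cd74 and above those of the A and E chains, while in AAV-Cre it stood below all 4. The ratio of Cd74 to H2-Aa was 2.11 in AAV-Cre and 2.12 in AAV-GFP. Divided by all annotated exons instead, that ratio was 5.98 in AAV-Cre and 6.00 in AAV-GFP. With those lengths the order of H2-Aa, H2-Ab1 and H2-Eb1 was reversed and H2-DMa in AAV-GFP had 5.59 CPM per kb against 8.69 for Cd74. The order among the A and E chains thus depends on the length used. The order of neighbours cannot be tested without values per mouse.

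**Figure D2:**
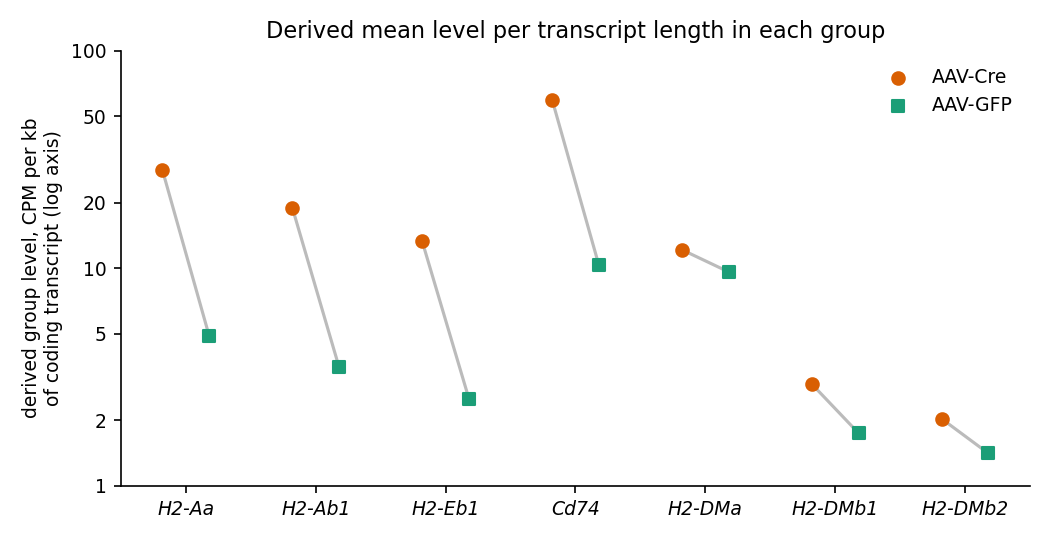
Derived group level in CPM per kb of the longest coding transcript (log axis) for each member, with AAV-Cre as circles and AAV-GFP as squares; no error can be drawn. Lines are steep for the A and E chains and Cd74 and shallow for the DM chains, with H2-DMa at 12.2 in AAV-Cre and 9.61 in AAV-GFP.

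The errors of the A and E chains and Cd74 were large for their level. The standard error of Cd74, 0.61, was 9.24 times the median of the 1262 genes whose mean log2 level lay within 0.25 of its own (0.066), and 1 of those genes had an error as large. For H2-Aa, H2-Ab1 and H2-Eb1 the ratio was 7.29, 5.78 and 5.60, and 2 of 1037, 6 of 869 and 7 of 855 genes of like level had an error as large. The DM chains stood closer to other genes, at 2.16 times for H2-DMa, 1.78 for H2-DMb1 and 1.58 for H2-DMb2. A standard error from 2 groups reflects the spread between mice within groups, but which mice were high cannot be read from it.

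**Figure D3:**
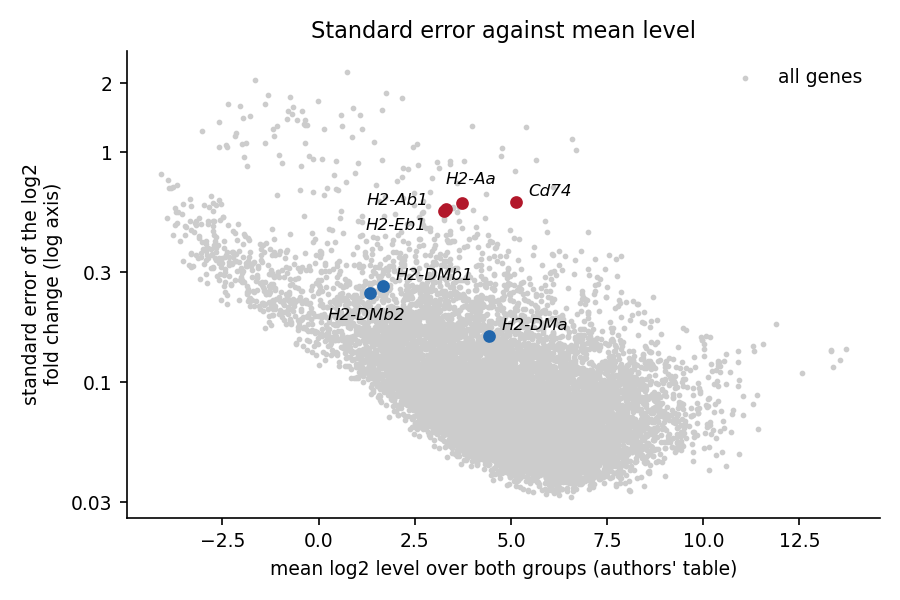
Standard error of the log2 fold change (log axis) against mean log2 level for all genes (grey) and the members (red, A and E chains and Cd74; blue, DM chains). The red points, 0.56 to 0.61, lie far above most genes of their level, and the blue ones, 0.16 to 0.26, nearer to them.

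Of the 7 members, 6 lie within 197 kb of chromosome 17. Among the 15 genes analysed that start within 300 kb of H2-Aa, 9 are no members. At an unadjusted p under 0.05, 5 of these 9 were higher, against 4.62% of all genes. They were H2-K1, an MHC class I chain at a log2 fold change of 1.33 ± 0.36, the peptide transporter genes Tap1 (1.28 ± 0.33) and Tap2 (0.72 ± 0.16), and the immunoproteasome genes Psmb9 (1.16 ± 0.34) and Psmb8 (1.08 ± 0.33) in the authors' deposited table. The 4 class I processing genes, Tap1, Psmb9, Psmb8 and Tap2, lie between the DM and the A chains. Whether fold change varies with position was not tested. Tap2, the nearest of them to the A chains, had the lowest value of the 4, below that of H2-DMb1 (0.75).

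The other 4 neighbours serve other functions. The chromatin reader gene Brd2 stood at 0.02 ± 0.04, Ring1 of the Polycomb complex at 0.04 ± 0.10, the nuclear receptor gene Rxrb at 0.03 ± 0.04 and the collagen gene Col11a2 at -0.17 ± 0.09 in the authors' deposited table. Brd2 bears on H2-DMa, since their annotated exons overlap by 360 bases on opposite strands, 10.4% of the exons of H2-DMa. Strand use in counting is not given in the sources used here, and H2-DMa had a mean level of 10.8 CPM per kb of transcript, against 44.1 for Brd2. How far shared reads move the value of H2-DMa was not tested.

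**Figure D4:**
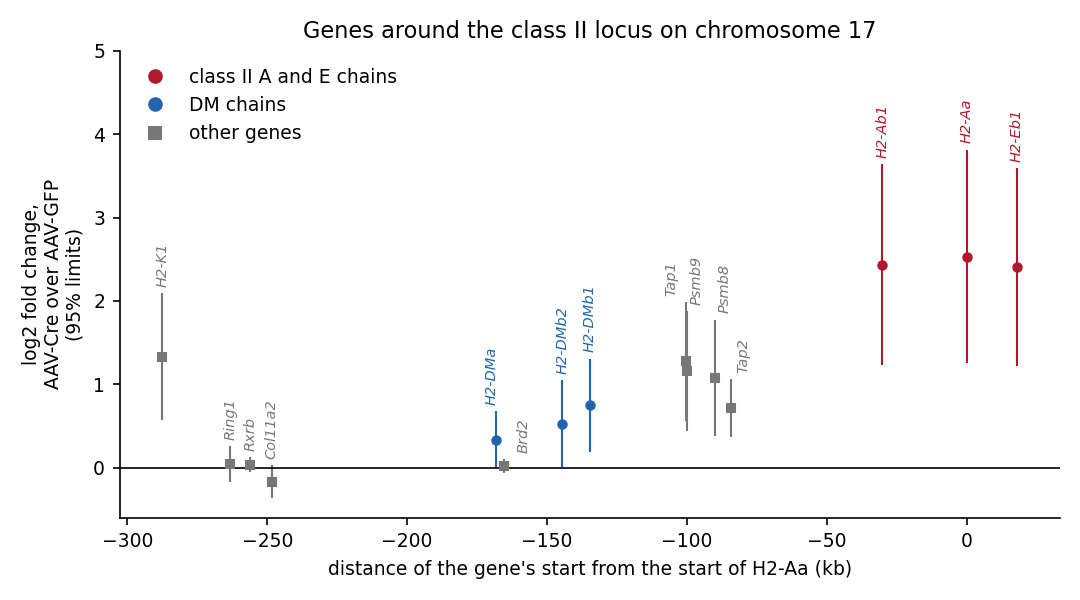
Log2 fold change (AAV-Cre over AAV-GFP, with 95% limits) of the genes that start within 300 kb of H2-Aa, by distance of their start from that of H2-Aa; red, A and E chains; blue, DM chains; grey squares, other genes. The 3 red genes, 2.40 to 2.53, stand above all 12 others, and Brd2, next to H2-DMa, lies at 0.02.

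The DM beta genes are similar in sequence. Their longest coding transcripts shared 94.3% of 1211 aligned bases, with 69 mismatches among them and 265 gap positions besides, and 22.7% of the 50-base words of H2-DMb1 transcripts also occur in H2-DMb2, so the split of reads from those stretches is uncertain. H2-Ab1 and H2-Eb1 shared 72.8% of 776 aligned bases and 0 words of 50 bases.

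The genes of the factors that bind DNA at class II promoters showed no like difference, while Ciita, the transactivator gene of this list, was not analysed. Of 8 listed genes 7 were analysed, 6 higher and 1 lower, beside 59.1% of all genes higher. The median log2 fold change of the 7 was 0.04, and 0 had an unadjusted p under 0.05. The subunits of RFX, the complex that binds the X box, stood at 0.11 ± 0.06 for Rfxap, 0.09 ± 0.07 for Rfxank and -0.06 ± 0.10 for Rfx5 in the authors' deposited table. The NF-Y subunits, which bind the Y box, stood at 0.04 ± 0.07 (Nfya), 0.03 ± 0.06 (Nfyb) and 0.05 ± 0.05 (Nfyc), and Creb1 at 0.03 ± 0.05 there. The widest 95% limits among these 7, those of Rfx5, ran from -0.27 to 0.15.

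Upstream, 7 of 9 genes of interferon gamma signalling were analysed, 6 higher and 1 lower with a median of 0.11, and 3 had an unadjusted p under 0.05. Among all genes, 59.1% were higher, and 4.62% were higher at that threshold. The transcription factor genes Irf1, at 0.84 ± 0.23 (adjusted p = 0.695), and Irf8, at 0.50 ± 0.21 (adjusted p = 0.919), stood highest of these 7 in the authors' deposited table. The receptor chains Ifngr1 (0.19 ± 0.09) and Ifngr2 (0.03 ± 0.13), the kinases Jak1 (-0.02 ± 0.05) and Jak2 (0.11 ± 0.08), and Irf2 (0.07 ± 0.06) were nearer 0 in that table. Ifng and the feedback inhibitor Socs1 were not analysed here.

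Genes that prepare the peptide and cut the invariant chain were all 7 higher, with a median of 0.19, and 4 had an unadjusted p under 0.05. The shares over all genes were 59.1% higher, and 4.62% higher at that threshold. Ctss, the protease that makes the last cut of the invariant chain in many antigen-presenting cells, stood at 0.72 ± 0.25 in the authors' deposited table, and Ifi30, which reduces disulphide bonds in endosomes, at 0.53 ± 0.20. The lysosomal protease genes Ctsd (0.33 ± 0.15) and Lgmn (0.19 ± 0.09) also had an unadjusted p under 0.05 there, while Ctsl (0.09 ± 0.05), Ctsb (0.09 ± 0.06) and Sppl2a, which removes the membrane stub of the invariant chain (0.05 ± 0.06), did not. For these 7, the authors' deposited table gives adjusted p between 0.919 and 0.939.

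On the side of T cell contact, 5 of 7 genes were analysed. At an unadjusted p under 0.05, 3 of them were higher, against 4.62% of all genes. The inhibitory ligand gene Cd274 stood at 1.03 ± 0.29 in the authors' deposited table, Lag3, an inhibitory receptor that binds class II, at 0.70 ± 0.28, and the costimulatory ligand gene Cd86 at 0.55 ± 0.20. Icosl stood at 0.41 ± 0.24, and Cd4, the coreceptor for class II, at -0.05 ± 0.17 in that table. Genes of class II turnover lay closer to 0 there: the ubiquitin ligase genes March1 (0.14 ± 0.12) and March8 (0.04 ± 0.08), and Cd83, which opposes March1 (0.14 ± 0.19). Of 5 listed genes for ligands and partners of the invariant chain, 2 were analysed, and these ligand genes, Mif (0.04 ± 0.07) and Ddt (-0.07 ± 0.12), stood likewise. None of the 5 turnover and ligand genes (0 of 5) had an unadjusted p under 0.05 in the authors' deposited table.

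**Figure D5:**
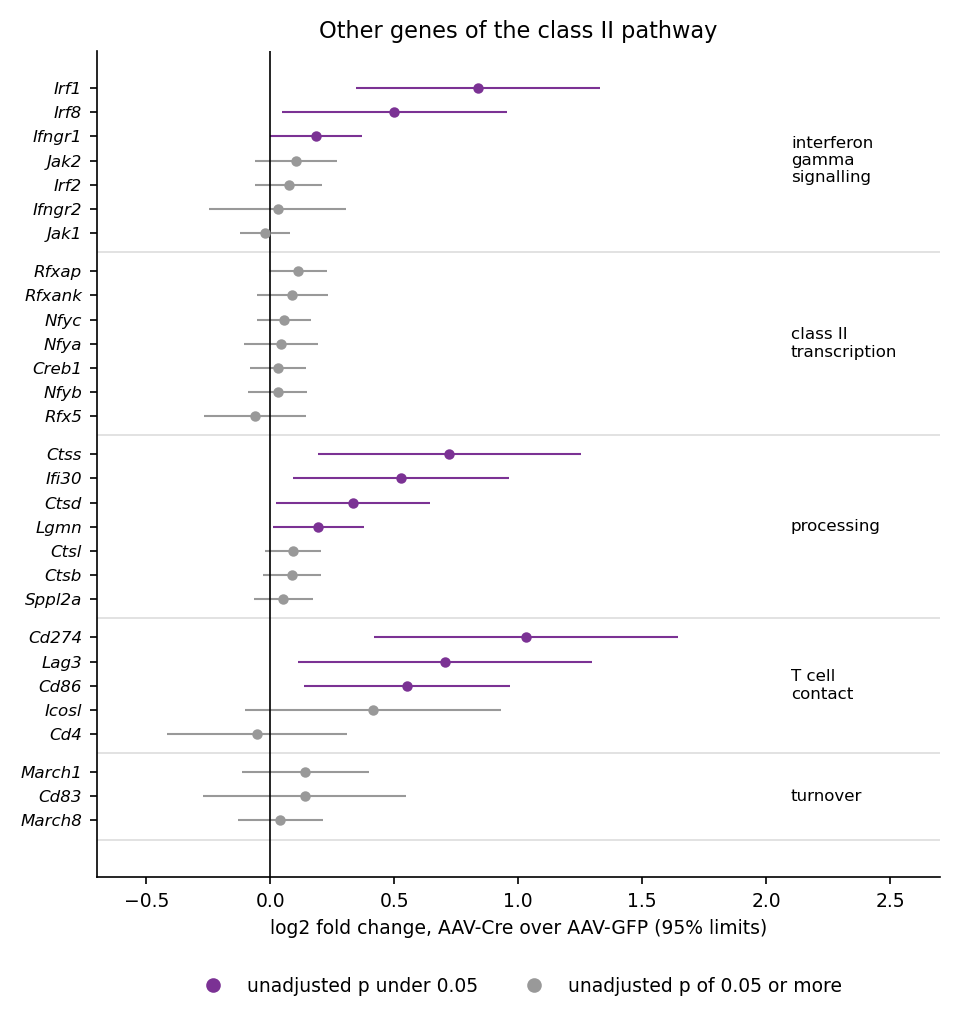
Log2 fold change (AAV-Cre over AAV-GFP, with 95% limits) of other genes of the class II pathway by role, in purple where the unadjusted p was under 0.05 and grey otherwise. The RFX, NF-Y and Creb1 genes lie between -0.06 and 0.11, below Irf1 at 0.84, Ctss at 0.72 and Cd274 at 1.03.

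Markers of cells that can carry class II were read in the same table. In bulk tissue, more cells of a type and more RNA per cell cannot be told apart. All 19 listed microglia markers were analysed, 17 higher and 2 lower, beside 59.1% of all genes higher. Log2 fold changes of the 19 ran from -0.08 to 0.72, with a median of 0.26. At an unadjusted p under 0.05, 8 of the 19 were higher, against 4.62% of all genes. The summed derived level of the 19 was 998 CPM in AAV-Cre and 805 in AAV-GFP. C1qa (0.72 ± 0.25), Aif1 (0.50 ± 0.18), C1qc (0.53 ± 0.20) and C1qb (0.56 ± 0.22) led by p in the authors' deposited table. All 19 lay below the A and E chains there, and so did the defining markers P2ry12 (0.02 ± 0.12), Cx3cr1 (0.26 ± 0.13) and Tmem119 (0.37 ± 0.16) among them.

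Of 9 B cell markers 3 were analysed, and all 3 were higher: Igkc at 2.92 ± 1.03, Ighm at 1.76 ± 0.71 and Cd79a, a part of the B cell receptor, at 1.67 ± 0.67 in the authors' deposited table. Their summed derived level was 412 CPM in AAV-Cre and 75.3 in AAV-GFP, nearly all of it from the 2 immunoglobulin genes. The mean level of Cd79a was low, 0.91 CPM, with a derived level of 1.62 in AAV-Cre and 0.51 in AAV-GFP. The filter on low genes is not known, so such a gene may have been kept only through the group where it is higher. That all 3 were higher is therefore no independent result, and 59.1% of all genes were higher. Of 10 T cell markers 3 were analysed, with Trac at 1.39 ± 0.40, Lck at 0.51 ± 0.21 and Cd4, given above, in the authors' deposited table. Their mean levels differed widely, at 0.35 CPM for Trac, 3.90 for Lck and 56.7 for Cd4. The derived level of Trac was 0.57 CPM in AAV-Cre and 0.22 in AAV-GFP, so the limit given for Cd79a holds for it too. Of 8 monocyte markers 3 were analysed, S100a4 (0.71 ± 0.26), Ly6c1 (0.12 ± 0.10) and Vcan (-0.07 ± 0.14) in the authors' deposited table. Mean levels of these 3 were 2.06, 27.0 and 40.1 CPM, in that order. Which cells of the tissue these T cell and monocyte markers came from was not tested. Their values therefore do not show whether T cells or monocytes differed. Cd163 (-0.28 ± 0.26) and Clec12a (0.10 ± 0.22) were the 2 of 9 border macrophage markers analysed, and 0 of 10 dendritic cell markers were analysed here.

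Among resident cells with little class II at rest, 7 of 9 astrocyte markers and all 8 endothelial markers were higher, with medians of 0.09 and 0.20. Those with an unadjusted p under 0.05 were Slc1a3 (0.20 ± 0.08) among astrocyte genes, and Cldn5 (0.29 ± 0.12) and Cdh5 (0.27 ± 0.12) among endothelial genes in the authors' deposited table. For comparison, 59.1% of all genes were higher, and 4.62% were higher at that threshold. The 10 medium spiny neuron markers analysed had a median of 0.09, and 0 had an unadjusted p under 0.05. The part of any of these cell types in the class II values was not tested.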

How the data were processed

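A single table with the authors' comparison of the groups was used. Per the submitters' processing notes, the tools were Bowtie2 2.1.0 and TopHat2 2.0.9 and the build mm10 (GRCm38). How reads were counted, with what strand setting, annotation, filter and model, is not given in the sources used here. Fold changes and mean levels were deposited by the authors as log2 values under limma's column names. They also deposited 2 score columns, limma's t and B per the file headers, of which t was used. Each gene has a deposited p-value before and after adjustment, the second equal within 1e-06 to a Benjamini-Hochberg adjustment over the 13130 genes. Linear mean levels sum to 991364, close to what log2 CPM would give, and are read as CPM. The direction, AAV-Cre over AAV-GFP, comes from the table's name.

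Standard errors are the log2 fold change over t, and 95% limits use the 15.1 degrees of freedom that link t and p. This derivation was tested on simulated statistics. Coordinates, exons and transcript lengths came from GENCODE M21 (GRCm38), with 13063 of 13130 gene IDs matched. Transcript pairs were aligned locally. The tests planned for library values could not be run. Named genes are all members, the genes of the pathway lists, up to 4 genes of smallest p per cell type list, and the 6 genes of nearest fold change; P2ry12, Cx3cr1, Tmem119, the genes around H2-Aa and those of equal or higher fold change were chosen after their values were seen. Members and lists were chosen with earlier results of these data known. Alternatives were an adjusted threshold of 0.1, an unadjusted threshold of 0.01, Bonferroni adjustment, a mean of at least 1 CPM, the mean for the median, and leaving out the DM beta genes; leaving out H2-DMa was chosen after seeing the data. A gene of the interferon gamma list is left out of that list's counts and median and is not reported here. Software was Biopython 1.88, matplotlib 3.10.9, scipy 1.17.1, pandas 2.3.3 and numpy 2.4.6 under Python 3.11.15.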

Additional observations from a re-analysis of the deposited data

How the results depend on the processing

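The count of members past the adjusted threshold stayed at 0 with an adjusted threshold of 0.1 and with Bonferroni adjustment. Both were bound to give 0, since adjusted p started at 0.695. It was also 0 over the 12697 genes with a mean of at least 1 CPM, where the members' adjusted p ran from 0.782 to 0.928. With the unadjusted threshold at 0.01 the count of higher members was 4 in place of 7, a smaller count by construction. It was 7 with a mean of at least 1 CPM, 5 without H2-DMb1 and H2-DMb2 and 6 without H2-DMa. These counts were also fixed by construction, since all 7 members had such a mean and all 7 were counted. The median log2 fold change of 2.40 was 2.44 without the DM beta genes and 2.42 without H2-DMa, while the mean in its place was 1.65, since the 3 DM chains stand far below the other 4. No paired analysis was possible because the table holds no value per mouse. For the same reason no mouse could be left out in turn, and the filter and model behind the table could not be changed. The 95% limits of the A and E chains and Cd74 ran from 2.33-fold at the lowest to 14.1-fold at the highest.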
